A study of Mus musculus with 18 samples.

Results

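Autophagy is the process by which a cell encloses part of its own cytoplasm in a double membrane and delivers it to the lysosome for breakdown, and mitophagy is its use on mitochondria. The expression of 41 autophagy and mitophagy genes was followed through the day in mouse liver. The genes are a list of names with roles in the pathway, drawn up with earlier results of these data known though by no threshold on their values, and all 41 were found, each in 1 row, among the 14451 genes of the deposited table. The data come from poly(A) RNA sequencing of whole livers of WT male mice, 8 to 9 weeks of age, kept in 12 h of light and 12 h of dark. Livers were taken every 4 h from ZT1 to ZT21, where ZT is zeitgeber time in hours, ZT0 is lights on and ZT12 lights off, with 3 mice at each of the 6 time points and 1 liver per mouse. All groups share genotype, sex and housing and differ by the labels in the time of collection only. Strain, feeding schedule and batch are not given in the sources used here. More mice were kept at each time point than were sequenced, and the animals with the best RNA were chosen, so the livers were not a random draw.

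The pathway starts with the ULK kinase complex, which receives signals on nutrients and energy, and goes on to the class III PI3 kinase complex, which makes the lipid PI3P on the growing membrane. ATG9 and ATG2 proteins bring lipids, and a conjugation machinery similar to that of ubiquitin attaches the small Atg8 proteins (the LC3 and GABARAP families) to the membrane. Cargo receptors tie the cargo to the Atg8 proteins, and the closed vesicle fuses with the lysosome. In the liver, autophagy supplies amino acids, glucose and lipids between meals, and mice eat mostly in the dark phase. RNA levels do not measure the flux through the pathway, which depends largely on the proteins and their modification.

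Values are estimated reads plus 0.5 per 1000000 reads of a library size that the authors set, called normalized values below. Livers had from 10268168 to 23242842 estimated reads (median 12078875), and the 41 genes had between 23 (Atg10) and 15179 (Lamp2) reads in a liver. Hepatocyte markers were high in every liver, with a summed level between 80971 and 113628, of which Alb was the highest. Between the 3 livers of a time point the median CV of the 41 genes was 7.14%, from 2.99% to 20.2% per gene, against a median of 13.1% over the 14449 genes tested. In RNA from whole tissue, a change in the share of a cell type and a change of the RNA per cell cannot be told apart.

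A 24 h rhythm was tested with limma, as a cosine and sine of 24 h on log2(value + 1), and *P*-values were adjusted by Benjamini–Hochberg over all 14449 genes, with a threshold of 0.05. The amplitude of the fit is in log2 units, from the middle to the peak, and the fitted fold is the ratio of its peak to its trough on the same scale. By this test 24 of the 41 genes were rhythmic, against 35.3% of all genes tested. Of the 24, 19 had their fitted peak in the light phase, where 18.2% of all genes were called with such a peak. The other 5 had it in the dark phase, where 17.1% of all genes were. The peaks of Lamp2 (ZT0.02 ± 0.99 h, SE), Sqstm1 (ZT0.42 ± 0.65 h), Atg4d (ZT11.4 ± 0.80 h) and Tfeb (ZT11.9 ± 0.69 h) lay within 1 SE of lights on or off. These genes count among the 19, though the fit does not settle their phase. Under scaling by median ratios the Lamp2 peak was at ZT23.9, in the dark phase. With livers rescaled to equal totals, which shifts them by between -0.11 and 0.09 on the log2 scale, 22 of the 41 genes were called with a peak in the light phase and 5 in the dark phase, while the light phase share of all called genes moved from 2634 of 5103 to 3581 of 5275. With livers rescaled by median ratios the counts were 18 in the light phase and 7 in the dark phase, with no pseudocount 19 and 7, and with a pseudocount of 5 they were 20 and 8. JTK, a rank test written anew here, called 15 of the 41 genes at a q-value below 0.05, against 14% of all genes. These 15 were all among the 24, and 13.9% of all genes were called by both tests. The study also used JTK and reported more genes for its liver data than were called here, so these are not its calls. With a null that takes equal cosines as 1 group, JTK called 21 of the 41 genes and 22.4% of all genes. Whether a gene was called by both tests or by limma only therefore depends on the null. Shares over all genes include genes with low values. With only the 12480 genes of a mean value of at least 1, limma called 26 of the 41 genes, against 41.4%. There JTK called 19 of the 41, against 18.3%. JTK called 8 of the 41 genes without the second liver of ZT5 and 9 without the first or the second liver of ZT17. Its share of all genes also fell in these settings, to 7.80%, 8.10% and 9.26% in that order.

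Most changes were small. The highest time point mean was a median of 1.41 times the lowest in the 24 rhythmic genes, from 1.22 to 2.89, and 17 of them had a fitted fold under 1.5. Only 3 of the 24, Ulk1, Gabarapl1 and Atg16l2, had a fitted fold of at least 2. The median amplitude was 0.17 over the 41 genes and 0.16 over all genes tested, and among called genes it was 0.23 for the 24 and 0.28 for all. Of the 24, 11 had their lowest mean at ZT17 and 6 at ZT13, while 8 had their highest at ZT5, 7 at ZT9 and 5 at ZT1. Over all 41 genes the livers of the highest and the lowest time point did not overlap in 36, against 70.8% of all genes.

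**Figure D1:**
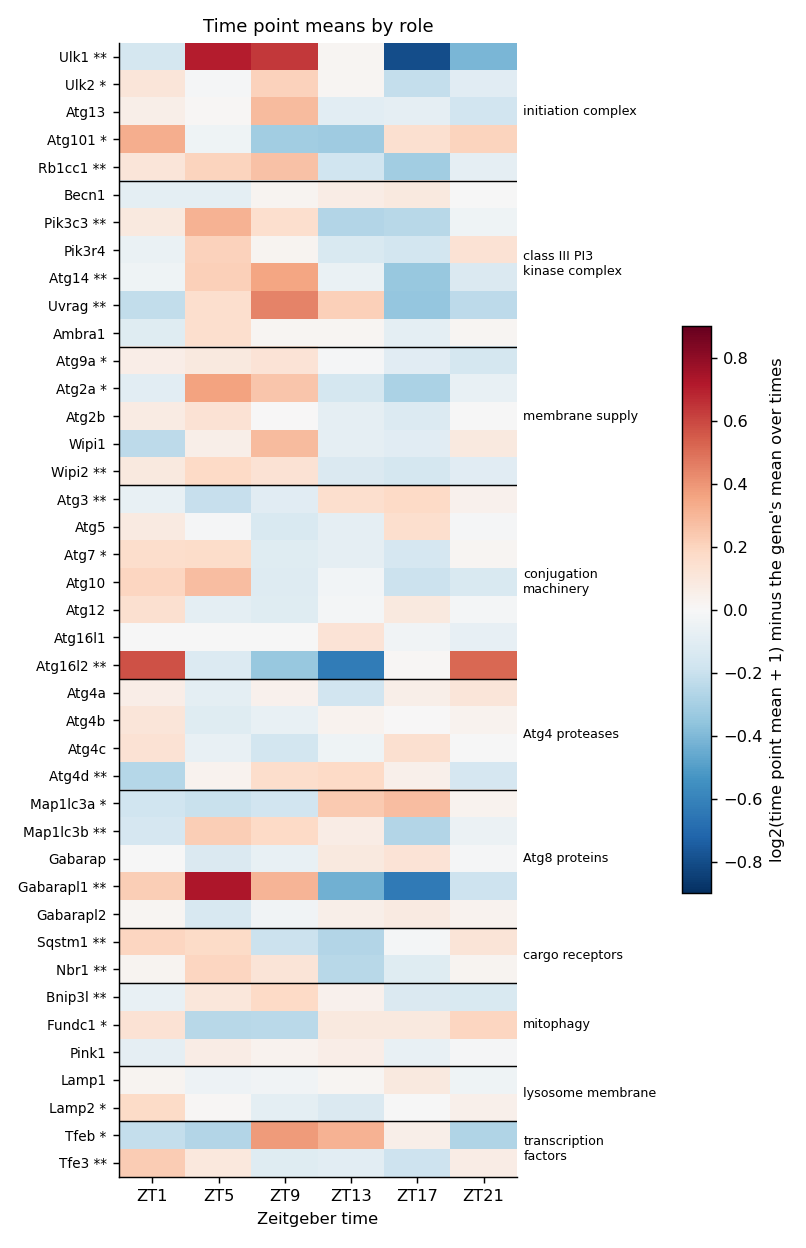
Heat map of the 41 genes (rows, in 10 groups by role) at the 6 zeitgeber times (columns). Colour is log2(time point mean of 3 livers + 1) minus the gene's mean over the 6 times, red above and blue below; 1 star marks a 24 h rhythm by limma and 2 stars one by limma and JTK. Ulk1 and Gabarapl1 are reddest at ZT5 and bluest at ZT17, and Atg16l2 is reddest at ZT1 and ZT21.

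A fit of 6 free means found a difference between any time points in 21 of the 41 genes, against 26.3% of all genes. A 12 h term, added to the 24 h fit in limma, passed the adjusted threshold in 0 of the 41 genes, where 0.872% of all genes passed. At an unadjusted *P*-value below 0.05 it was 4 of the 41 against 12.6% of all genes. Fitted peaks of the rhythmic genes fell in ZT0 to ZT4 for 5 genes, in ZT4 to ZT8 for 10, in ZT8 to ZT12 for 4, in ZT12 to ZT16 for 0, in ZT16 to ZT20 for 3 and in ZT20 to ZT24 for 2. Among the 5103 rhythmic genes of the whole table, 16.2% peaked in ZT0 to ZT4 and 21.8% in ZT4 to ZT8. A further 13.6% peaked in ZT8 to ZT12 and 15% in ZT12 to ZT16. The shares were 19.5% for ZT16 to ZT20 and 13.9% for ZT20 to ZT24. This is a description of the 24 genes and was not tested against the others.

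**Figure D2:**
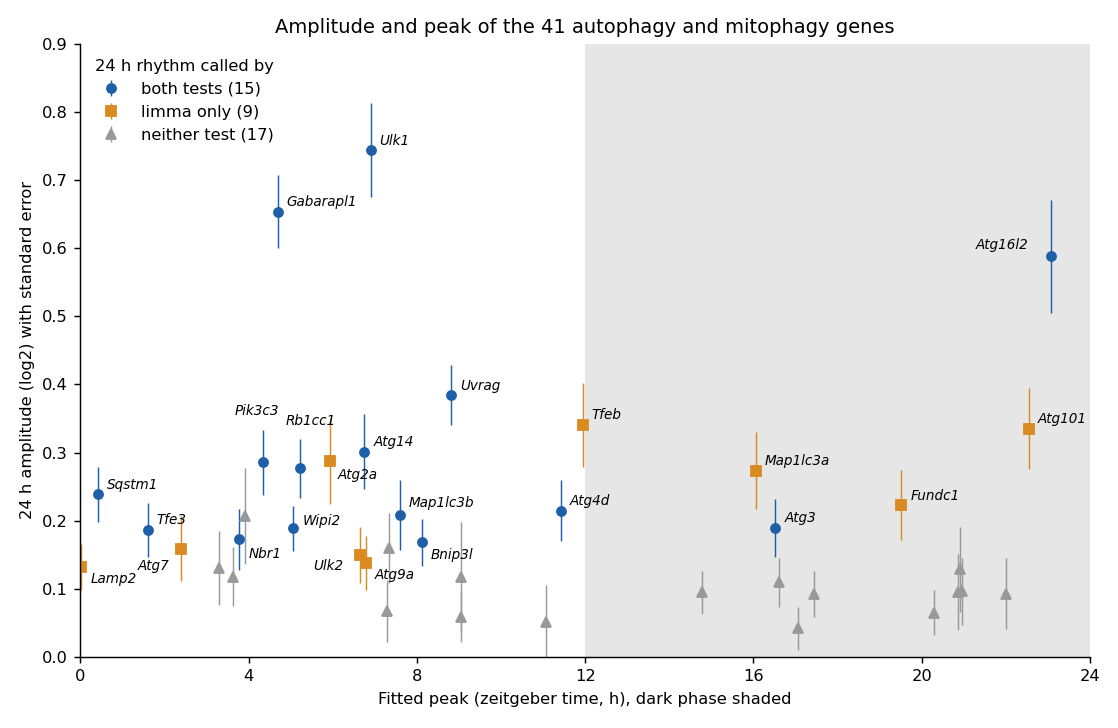
Amplitude of the 24 h fit (log2, with its standard error as a vertical line) against the fitted peak in zeitgeber time for the 41 genes, with the dark phase shaded. Blue circles are the 15 genes called by limma and JTK, orange squares the 9 called by limma only and grey triangles the 17 called by neither; Ulk1, Gabarapl1 and Atg16l2 stand above 0.5.

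Sequences upstream of the start are shown for 3 genes with different timing. Ulk1 and Gabarapl1 had the largest amplitudes, both with a light phase peak, and Atg3 had a dark phase peak and holds 2 copies of the E-box CACGTG, the sequence bound by the clock factors CLOCK and BMAL1 and also by TFEB. They are from RefSeq (build GRCm38.p6), run 5′ to 3′ on the strand of the gene and stop where the first exon in the GENCODE M21 annotation begins. The Ulk1 sequence is chr5:110810098-110810331 (minus strand), that of Gabarapl1 is chr6:129532942-129533159 (plus strand) and that of Atg3 is chr16:45158579-45158784 (plus strand). Capitals mark the core of a FOXO site, TAAACA, in Gabarapl1 and the E-boxes in Atg3; none of the searched motifs is in the Ulk1 sequence.
Ulk1: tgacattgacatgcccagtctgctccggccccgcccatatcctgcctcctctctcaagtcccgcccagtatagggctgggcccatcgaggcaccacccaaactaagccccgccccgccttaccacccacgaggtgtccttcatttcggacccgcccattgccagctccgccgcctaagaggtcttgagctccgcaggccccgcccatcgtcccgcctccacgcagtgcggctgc
Gabarapl1: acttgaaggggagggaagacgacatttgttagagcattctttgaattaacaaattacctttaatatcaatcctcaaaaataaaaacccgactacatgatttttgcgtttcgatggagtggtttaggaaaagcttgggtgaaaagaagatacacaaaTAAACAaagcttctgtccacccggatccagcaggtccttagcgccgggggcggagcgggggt
Atg3: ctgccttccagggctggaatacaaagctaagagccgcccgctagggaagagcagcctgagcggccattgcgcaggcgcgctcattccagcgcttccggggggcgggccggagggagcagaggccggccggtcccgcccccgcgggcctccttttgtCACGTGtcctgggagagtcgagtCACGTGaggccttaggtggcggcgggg
The FOXO core began 94 bases before the RefSeq start of Gabarapl1, and the E-boxes of Atg3 began 94 and 71 bases before its start. Both strands of 250 bases before each start were searched in 40 windows of 34 of the genes, and 7 genes had no window. CACGTG was in 4 of the 40 windows (Atg3, Atg5, Atg7 and Lamp1), against 6.02% of 32851 windows of all genes. The extended E-box TCACGTGA was in 1 (Atg3, around the E-box nearer to its start), against 0.785% of all windows. TAAACA, a core that was added after the Gabarapl1 sequence had been looked at, was in 3 (Ambra1, Atg4a and Gabarapl1), against 12.0% of all windows. TGACGTCA, the cAMP response element, was in 1 (Atg16l2, not printed) against 1.55%. The full FOXO site GTAAACA, the D-box TTATGTAA, the ROR element TAGGTCA and the CLEAR element of TFEB, here the E-box with GT before and AC after it, were in none of the 40, against 3.17%, 0.819%, 2.23% and 0.240% of all windows. Such matches are letters in a window and do not show binding.

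The initiation complex held the gene with the largest rhythm. Ulk1, the kinase that starts autophagy, lies on chromosome 5 from 110784488 to 110810097 (GRCm38, GENCODE M21, minus strand). Its normalized values were 53.3, 54.1 and 59.9 at ZT1, 90.2, 108 and 109 at ZT5, 93.1, 94.3 and 104 at ZT9, 56.9, 62 and 70.3 at ZT13, 27.8, 38.7 and 39.7 at ZT17 and 38.5, 49.2 and 51.6 at ZT21. All livers of ZT5 and ZT9 were above those of the other 4 time points, and those of ZT17 and ZT21 were the lowest. The mean rose to 102 ± 10.5 (SD, n = 3) at ZT5 from a low of 35.4 ± 6.59 (SD, n = 3) at ZT17, and the fit gave an amplitude of 0.74 ± 0.07, a peak at ZT6.9 ± 0.35 h (SE), a fitted fold of 2.80, an adjusted *P*-value of 1.79e-06 and a JTK q-value of 0.0109. Ulk2, the related kinase, had values between 69.9 (ZT17) and 98.8 (ZT9) and a smaller fit, with an amplitude of 0.15 ± 0.04 and an adjusted *P*-value of 0.0248, and was not called by JTK (q = 0.350). The Ulk2 call was lost without the second liver of ZT9 and without any 1 of the 3 livers of ZT17, with adjusted *P*-values from 0.0512 to 0.0558. The ratio of Ulk1 to Ulk2 had a 24 h rhythm of its own (amplitude 0.60 ± 0.08 log2, adjusted *P*-value 0.0002 by a permutation test with 100000 resamples of the time labels, over 14 pairs of genes). The mean ratio was 1.24 at ZT5 and 0.498 at ZT17. Mean ratios, here and below, are of value + 1 and averaged on the log2 scale.

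Rb1cc1, the scaffold also called FIP200, moved at about the same time as Ulk1 but less. Its values were 47, 47.4 and 51.1 at ZT1, 48.3, 49.9 and 56.8 at ZT5, 52.1, 54 and 56 at ZT9, 35.7, 40.4 and 42.5 at ZT13, 33.8, 35.3 and 38.6 at ZT17 and 38.5, 43.7 and 45 at ZT21. The livers of ZT17 were all below those of ZT1, ZT5 and ZT9, and the fit gave an amplitude of 0.28 ± 0.04 and a peak at ZT5.2 (adjusted *P*-value 0.000360, JTK q = 0.0188). Atg101, the subunit that holds ATG13 in shape, ran the other way. It gave 21.6, 27.4 and 30.1 at ZT1, 18.5, 19 and 23.2 at ZT5, 14.9, 15.9 and 19 at ZT9, 14.8, 16.2 and 18.5 at ZT13, 19.2, 25.1 and 25.1 at ZT17 and 21.5, 24.8 and 26 at ZT21. Its lowest means were those of ZT9 and ZT13, and its fitted peak was at ZT22.5, with an amplitude of 0.33 ± 0.06 and an adjusted *P*-value of 0.00110 (JTK q = 0.0524). Atg13, the subunit that ties the complex together, was not called (adjusted *P*-value 0.0548), with means from 45.7 (ZT21) to 63.1 (ZT9), but differed between time points in the fit of 6 means (adjusted *P*-value 0.0377). In all, 4 of the 5 genes of this group were rhythmic, against 35.3% of all genes tested. Of these, 3 had a peak in the light phase, where 18.2% of all genes were called. The groups by role held 2 to 7 genes each, and none was tested against all genes.

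**Figure D3:**
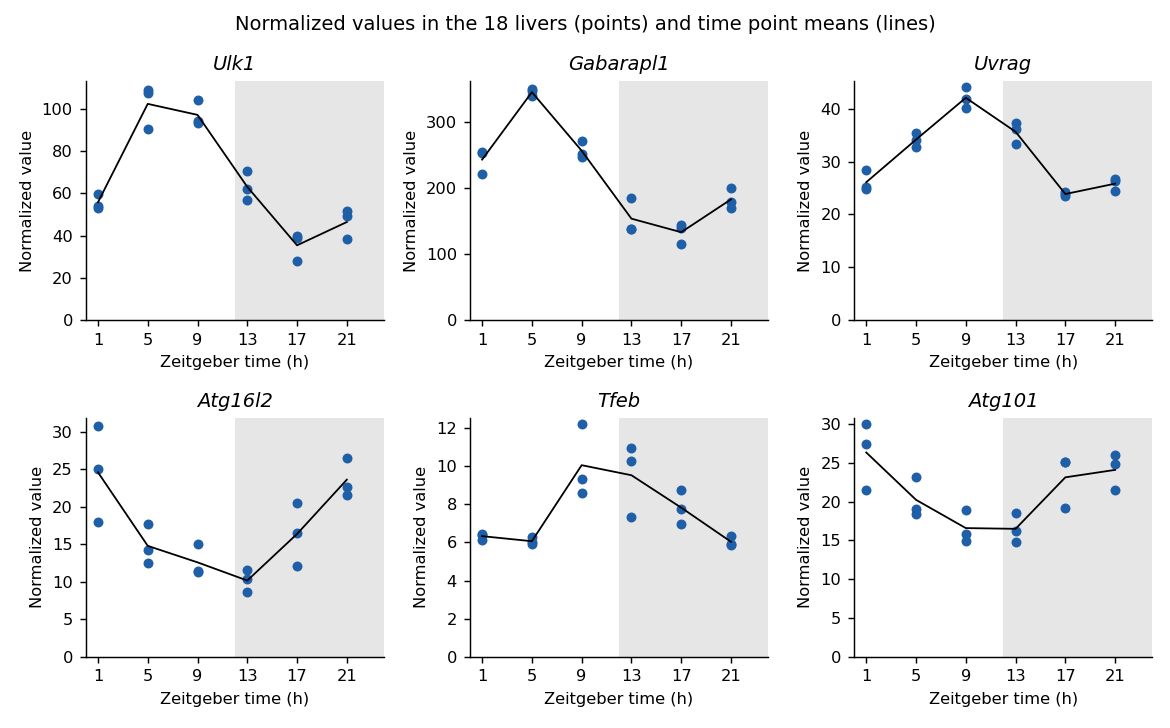
Normalized values (vertical axes, from 0) of the 6 genes with the largest amplitudes in the 18 livers (points) by zeitgeber time (horizontal axes, dark phase shaded), with lines through the means of 3 livers. Ulk1 is highest at ZT5 and ZT9, Gabarapl1 at ZT5 and Uvrag from ZT5 to ZT13, Tfeb at ZT9 and ZT13, and Atg16l2 and Atg101 at ZT21 and ZT1.

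In the class III PI3 kinase complex, 3 of 6 genes were rhythmic, against 35.3% of all genes tested. All 3 were called by both tests, against 13.9% of all genes. They peaked in the light phase, where limma called 18.2% of all genes. Pik3c3 encodes the lipid kinase itself, VPS34. Its values were 16.3, 17 and 18.5 at ZT1, 19.6, 20.1 and 21.5 at ZT5, 16.7, 18.3 and 19.1 at ZT9, 12.2, 13.5 and 14.3 at ZT13, 10.7, 14.8 and 14.9 at ZT17 and 15.4, 15.5 and 16.5 at ZT21. The 3 livers of ZT5 were above all others, and the lowest were of ZT13 and ZT17. The fit had an amplitude of 0.29 ± 0.05 and a peak at ZT4.4 (adjusted *P*-value 0.000625, JTK q = 0.0109). Pik3r4, its regulatory subunit VPS15, had means from 16.3 (ZT17) to 21.4 (ZT5) and was not called (adjusted *P*-value 0.151).

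The complex works in 2 forms, and the subunits that tell them apart both had a rhythm. Atg14 directs the kinase to the site where autophagosomes form. It gave 15.3, 15.5 and 18.3 at ZT1, 18.4, 20 and 21 at ZT5, 19.1, 21.1 and 25.3 at ZT9, 13.7, 17.1 and 17.7 at ZT13, 11.6, 13.1 and 14.6 at ZT17 and 14.3, 14.8 and 16.9 at ZT21. The means of ZT5 and ZT9 were the highest and that of ZT17 the lowest, with an amplitude of 0.30 ± 0.05 and a peak at ZT6.8 (adjusted *P*-value 0.00130, JTK q = 0.0229). Uvrag takes the place of ATG14 in the form that acts on endosomes. Its values were 24.8, 25.2 and 28.3 at ZT1, 32.8, 34.2 and 35.5 at ZT5, 40.2, 41.9 and 44.2 at ZT9, 33.4, 36.3 and 37.3 at ZT13, 23.5, 23.9 and 24.2 at ZT17 and 24.4, 26.3 and 26.8 at ZT21. The 3 livers of ZT9 were above all others, and the spread within a time point was at most 2.03 (SD). The mean of ZT9 was 42.1 ± 2.03 (SD, n = 3) against 23.9 ± 0.362 (SD, n = 3) for ZT17, with an amplitude of 0.38 ± 0.04 and a peak at ZT8.8 ± 0.43 h (SE, adjusted *P*-value 1.57e-05, JTK q = 0.0152). In the annotation 17.6% of the Uvrag exons overlap Gm45187 on the other strand, and reads of the 2 strands cannot be told apart where a library keeps no strand. Becn1, the Beclin subunit that both forms share, and Ambra1, a partner of Beclin, were not called, with ratios of highest to lowest mean of 1.13 and 1.21 and adjusted *P*-values of 0.0677 and 0.457.

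Membrane supply had 3 rhythmic genes of 5, against 35.3% of all genes tested, and the 3 peaks lay between ZT5.1 and ZT6.8. Wipi2, which binds PI3P and recruits the conjugation machinery, gave 62.1, 64 and 64.8 at ZT1, 65, 66.8 and 71.4 at ZT5, 63.8, 66.1 and 66.8 at ZT9, 50.9, 55.2 and 57.2 at ZT13, 49.1, 54 and 57.2 at ZT17 and 52.6, 56 and 58.4 at ZT21. The 9 livers of ZT1, ZT5 and ZT9 were all above the 9 of the other 3 time points, with an amplitude of 0.19 ± 0.03 and a peak at ZT5.1 (adjusted *P*-value 0.000922, JTK q = 0.0152). Atg2a, a lipid transfer protein, gave 40.7, 42.6 and 43.4 at ZT1, 48.5, 56.1 and 71.4 at ZT5, 49.4, 54.8 and 58 at ZT9, 35, 36.7 and 49.6 at ZT13, 34.5, 37.9 and 38.5 at ZT17 and 40.4, 41.5 and 47.4 at ZT21. At ZT5 1 liver stood above the other two, and the fit had an amplitude of 0.29 ± 0.06 and a peak at ZT5.9 (adjusted *P*-value 0.00589, JTK q = 0.0542). Atg9a, the membrane protein that redistributes lipids between leaflets, was called by limma alone (amplitude 0.14 ± 0.04, adjusted *P*-value 0.0312). Leaving out 1 liver of ZT5 (the third), ZT9 (the second), ZT17 (the second or the third) or ZT21 (the first) ended this call, with adjusted *P*-values from 0.0533 to 0.0608. Atg2b and Wipi1 were not called, at adjusted *P*-values of 0.100 and 0.469.

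In the conjugation machinery, 3 of 7 genes (42.9%) were rhythmic, near the 35.3% of all genes tested, and their timing was not shared. Atg16l2, a relative of Atg16l1 that also binds ATG5, had the largest amplitude of the 41 genes after Ulk1 and Gabarapl1. Its values were 18, 25 and 30.7 at ZT1, 12.5, 14.2 and 17.6 at ZT5, 11.3, 11.4 and 15 at ZT9, 8.59, 10.4 and 11.5 at ZT13, 12.1, 16.4 and 20.6 at ZT17 and 21.6, 22.7 and 26.5 at ZT21. The means of ZT21 and ZT1 were the highest and that of ZT13 the lowest, and the livers of ZT1 were spread over a wide range. The mean was 24.6 ± 6.40 (SD, n = 3) at ZT1 and 10.2 ± 1.47 (SD, n = 3) at ZT13, the amplitude 0.59 ± 0.08, the peak ZT23.1 and the fitted fold 2.26 (adjusted *P*-value 0.000149, JTK q = 0.0152). Atg16l1, which places the conjugation machinery on the membrane, had means from 27.3 (ZT21) to 31.4 (ZT13) and an adjusted *P*-value of 0.709. The ratio of Atg16l1 to Atg16l2 had a 24 h rhythm (amplitude 0.64 ± 0.13 log2, adjusted *P*-value 0.0019, permutation test over 14 pairs), with mean ratios of value + 1 of 2.90 at ZT13 and 1.15 at ZT21. Atg16l2 had between 120.0 and 321 reads per liver and, per length of transcript, the second lowest level of the 41 genes.

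Atg3, the enzyme that hands Atg8 proteins to the lipid and whose upstream E-boxes are shown above, gave 56, 57.7 and 65.1 at ZT1, 48.9, 52.7 and 60.2 at ZT5, 55.7, 59 and 59.6 at ZT9, 65.2, 69.2 and 74 at ZT13, 62.4, 74.7 and 75.3 at ZT17 and 59.2, 62.1 and 71.2 at ZT21. It was lowest at ZT5 and highest in the early and middle dark phase, and the livers of ZT13 and ZT17 overlapped with those of ZT21. The amplitude was 0.19 ± 0.04 and the peak ZT16.5 (adjusted *P*-value 0.00651, JTK q = 0.0435), while the fit of 6 means did not pass (adjusted *P*-value 0.0592). Atg7, the activating enzyme of both conjugation branches, peaked at ZT2.4 with an amplitude of 0.16 ± 0.05 (adjusted *P*-value 0.0365). Its call was lost without any 1 of 7 livers (the first and the third of ZT1, the second and the third of ZT5, the second of ZT13, the first and the third of ZT17), with adjusted *P*-values from 0.0598 to 0.0820. Atg5, Atg10, Atg12 and Atg16l1 were not called, and Atg10 had the lowest level of all, with means between 2.76 and 4.20.

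The 4 Atg4 proteases trim Atg8 proteins before they are attached and cut them off afterwards. Of the 4 genes, 1 was rhythmic (25%), against 35.3% of all genes tested. Atg4d gave 19.5, 22.7 and 23 at ZT1, 26.4, 26.6 and 27 at ZT5, 28.7, 29.2 and 29.7 at ZT9, 25.4, 27.9 and 35.9 at ZT13, 26.3, 26.5 and 28.1 at ZT17 and 20.5, 24.7 and 25 at ZT21. Its livers of ZT1 were the lowest together with 1 of ZT21, and at ZT13 1 liver was far above the other two. The amplitude was 0.21 ± 0.05 and the peak ZT11.4 (adjusted *P*-value 0.00429, JTK q = 0.0282). In the annotation, 19.3% of the Atg4d exons overlap Kri1 on the other strand (mean value 7.89), and the library kit is not stated to keep strand, so the share of its reads in the Atg4d values was not tested. Atg4a, Atg4b and Atg4c had means within 10.2 to 12.6, 21.7 to 25.3 and 11.4 to 14.4 and adjusted *P*-values between 0.240 and 0.338. The ratio of Atg4c to Atg4d had a 24 h rhythm (amplitude 0.33 ± 0.07 log2, adjusted *P*-value 0.0021, permutation test over 14 pairs) and that of Atg4a to Atg4b was not called (amplitude 0.04 ± 0.06, adjusted *P*-value 0.752, permutation test).

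The Atg8 proteins are the tags on the membrane that cargo receptors recognise. Gabarapl1 lies on chromosome 6 from 129533160 to 129542346 (plus strand) and had the smallest adjusted *P*-value of the 41 genes. Its values were 220.5, 253 and 254 at ZT1, 338, 346 and 349.7 at ZT5, 247, 250.3 and 271 at ZT9, 137, 137 and 185 at ZT13, 116, 138 and 144 at ZT17 and 170.1, 178 and 199 at ZT21. The livers of ZT5 were all above those of every other time point, and those of ZT13 and ZT17 were the lowest apart from 1 liver of ZT13. The mean of ZT5 was 345 ± 5.78 (SD, n = 3) and that of ZT17 was 133 ± 15.1 (SD, n = 3), with an amplitude of 0.65 ± 0.05, a peak at ZT4.7 ± 0.31 h (SE), a fitted fold of 2.47, an adjusted *P*-value of 5.68e-07 and a JTK q-value of 0.00740. Of its exons, 28.3% overlap 1700101I11Rik on the other strand, a gene that is not among those of the table.

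The other Atg8 genes moved less or the other way. Map1lc3b, the LC3 most used as a marker of autophagosomes, gave 72.5, 72.6 and 77.2 at ZT1, 83.8, 91.8 and 114 at ZT5, 88.4, 89.2 and 104 at ZT9, 82, 86.5 and 90.8 at ZT13, 64.8, 69.1 and 71.5 at ZT17 and 72.8, 79 and 86.4 at ZT21. It was lowest at ZT17 and ZT1 and highest at ZT5 and ZT9, where 1 liver each stood out, with an amplitude of 0.21 ± 0.05 and a peak at ZT7.6 (adjusted *P*-value 0.0126, JTK q = 0.0435). Map1lc3a, the other LC3 gene of the list, gave 13, 19.2 and 19.8 at ZT1, 15.4, 17.2 and 18.8 at ZT5, 16, 17.9 and 18.4 at ZT9, 21.4, 23.6 and 25.3 at ZT13, 22.5, 24.2 and 26 at ZT17 and 17.5, 20.8 and 22.4 at ZT21. Its livers of ZT13 and ZT17 were above all those of ZT1, ZT5 and ZT9, with a peak at ZT16.1 and an amplitude of 0.27 ± 0.06 (adjusted *P*-value 0.00376, JTK q = 0.0542). Gabarap and Gabarapl2 were not called, at adjusted *P*-values of 0.0598 and 0.0939, and had their highest means at ZT17.

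Ratios within the family had rhythms in all 3 pairs tested. Those of Gabarapl1 to Gabarapl2 (amplitude 0.74 ± 0.07 log2) and to Gabarap (0.76 ± 0.06 log2) both had an unadjusted *P*-value of 1e-05, the smallest that 100000 permutations can give, and that of Map1lc3b to Map1lc3a (0.43 ± 0.07 log2) had an adjusted *P*-value of 0.00064 (permutation test over 14 pairs). The mean ratio of Gabarapl1 to Gabarap, of value + 1, went from 0.887 at ZT17 to 2.74 at ZT5. Per length of transcript, Gabarapl1 made up 51.8% ± 1.65 (SD, n = 3) of the summed level of the 5 genes at ZT5, against 27.2% ± 2.36 (SD, n = 3) at ZT17. Gabarap went from 25.3% ± 0.41 (SD, n = 3) at ZT5 to 41.2% ± 1.66 (SD, n = 3) at ZT17, so that at ZT13 and ZT17 Gabarap was the higher of the pair in all livers of these times per length. Summed over the 5 genes, the level per kb was 366 ± 10.1 (SD, n = 3) at ZT5 against 268 ± 7.59 (SD, n = 3) at ZT17. Gabarapl2 and Map1lc3b had fractional reads in all 18 livers (over 0.02 reads from a whole number), as RSEM divides reads between similar sequences.

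**Figure D4:**
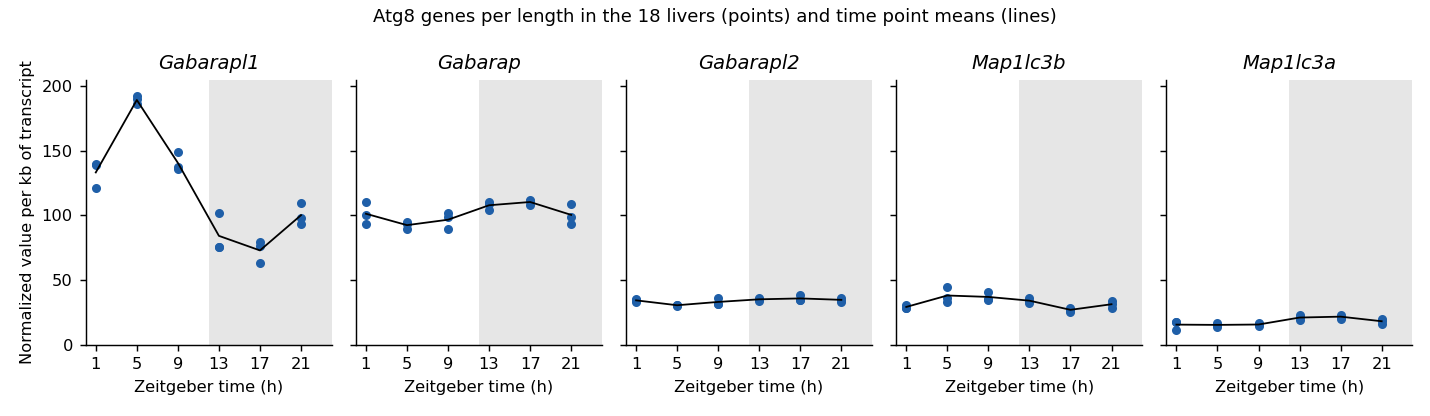
Level of the 5 Atg8 genes as normalized value per kb of their longest principal transcript (vertical axis, shared) in the 18 livers (points) by zeitgeber time (horizontal axes, dark phase shaded), with lines through the means of 3 livers. Gabarapl1 goes from 189 per kb at ZT5 to 73.0 at ZT17 and the other 4 stay within narrower ranges.

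Both cargo receptors were called by both tests, against 13.9% of all genes tested. Sqstm1, also called p62, binds ubiquitinated cargo and is itself degraded with it. Its values were 299, 330.1 and 356 at ZT1, 310.1, 321 and 339.5 at ZT5, 229.6, 258 and 265 at ZT9, 229, 230.0 and 258 at ZT13, 271, 276 and 305 at ZT17 and 293, 309 and 333 at ZT21. The livers of ZT9 and ZT13 were the lowest and all lay below those of ZT1, ZT5, ZT17 and ZT21. The mean was 329 ± 28.4 (SD, n = 3) at ZT1 and 239 ± 16.7 (SD, n = 3) at ZT13, with an amplitude of 0.24 ± 0.04 and a peak at ZT0.42 (adjusted *P*-value 0.000779, JTK q = 0.0282). Of its exons, 17.3% overlap Mrnip on the other strand, which had a mean value of 2.70. Nbr1, a receptor that works with p62 and also serves peroxisomes, gave 183, 198 and 199.5 at ZT1, 211, 214 and 229 at ZT5, 188, 212 and 217 at ZT9, 146, 159 and 174 at ZT13, 168, 177 and 184 at ZT17 and 178, 192 and 209.7 at ZT21. It was lowest at ZT13 and highest at ZT5, with an amplitude of 0.17 ± 0.04 and a peak at ZT3.8 (adjusted *P*-value 0.0176, JTK q = 0.0435). The ratio of Sqstm1 to Nbr1 had a 24 h rhythm (amplitude 0.18 ± 0.05 log2, adjusted *P*-value 0.0072, permutation test over 14 pairs), and was lowest at ZT9, with a mean ratio of value + 1 of 1.22, and highest at ZT1, with 1.69.

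Among the 3 mitophagy genes, 2 were rhythmic, against 35.3% of all genes tested, and the timing of the 2 was opposite. Bnip3l, also called NIX, is a receptor in the outer mitochondrial membrane that binds Atg8 proteins. Its values were 75.7, 79.4 and 84.6 at ZT1, 88.3, 89.1 and 92.4 at ZT5, 93, 95 and 97 at ZT9, 79.8, 86.6 and 91.6 at ZT13, 69.1, 79.7 and 80.3 at ZT17 and 72.3, 72.9 and 82.7 at ZT21. The livers of ZT9 were above all others, and ZT17 and ZT21 held the lowest livers, with an amplitude of 0.17 ± 0.03 and a peak at ZT8.1 (adjusted *P*-value 0.00372, JTK q = 0.0188). Fundc1, another receptor of the outer membrane, gave 7.37, 7.60 and 9.69 at ZT1, 5.83, 6.14 and 6.28 at ZT5, 5.41, 6.04 and 6.94 at ZT9, 7.86, 7.97 and 7.98 at ZT13, 6.99, 7.57 and 9.26 at ZT17 and 7.96, 8.68 and 9.24 at ZT21. It was lowest at ZT5 and ZT9, with a peak at ZT19.5 and an amplitude of 0.22 ± 0.05 (adjusted *P*-value 0.00805, JTK q = 0.159), on 63 to 147 reads per liver. The ratio of Bnip3l to Fundc1 had a 24 h rhythm (amplitude 0.39 ± 0.05 log2, adjusted *P*-value 0.00021, permutation test over 14 pairs), with a mean ratio of values of 13.5 at ZT9 and 7.99 at ZT21. Pink1, the kinase that marks damaged mitochondria, had means from 129 to 144, and neither it (adjusted *P*-value 0.417) nor its ratio with Bnip3l (adjusted *P*-value 0.106, permutation test) was called.

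The lysosome membrane proteins had the highest levels of the 41 genes per length. Lamp2, of which 1 isoform is the receptor of chaperone-mediated autophagy, gave 661, 685 and 689.8 at ZT1, 558, 631 and 632 at ZT5, 557, 559 and 579.7 at ZT9, 496, 558 and 594 at ZT13, 585, 606 and 607 at ZT17 and 592, 625 and 643 at ZT21. The livers of ZT1 were above those of ZT5, ZT9, ZT13, ZT17 and ZT21, with a peak at ZT0.02 ± 0.99 h (SE) and an amplitude of 0.13 ± 0.03 (adjusted *P*-value 0.0174, JTK q = 0.0542). Lamp1, its companion, had means from 493 to 541 and was not called (adjusted *P*-value 0.527). Their ratio had a 24 h rhythm (amplitude 0.15 ± 0.02 log2, adjusted *P*-value 0.0002, permutation test over 14 pairs), with a mean Lamp1 to Lamp2 ratio of value + 1 of 0.764 at ZT1 and 0.940 at ZT13.

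Both transcription factors were rhythmic, against 35.3% of all genes tested, and their peaks lay apart. Tfeb turns on lysosomal and autophagy genes when nutrients are scarce. It gave 6.14, 6.40 and 6.45 at ZT1, 5.89, 6.04 and 6.26 at ZT5, 8.62, 9.32 and 12.2 at ZT9, 7.34, 10.3 and 10.9 at ZT13, 6.97, 7.77 and 8.75 at ZT17 and 5.85, 5.92 and 6.34 at ZT21. The means of ZT9 and ZT13 were the highest and the livers of ZT1, ZT5 and ZT21 lay close together below, with an amplitude of 0.34 ± 0.06 and a peak at ZT11.9 (adjusted *P*-value 0.00122, JTK q = 0.0684), on 67 to 150.0 reads per liver. Tfe3, a related factor that binds the same sites, gave 22.4, 22.8 and 26.2 at ZT1, 19.6, 22.2 and 22.8 at ZT5, 17.7, 18.7 and 19.4 at ZT9, 17.2, 18.6 and 20.6 at ZT13, 16.6, 17.9 and 18.3 at ZT17 and 20.8, 21.2 and 21.3 at ZT21. It was high at ZT1 and low from ZT9 to ZT17, with a peak at ZT1.6 and an amplitude of 0.19 ± 0.04 (adjusted *P*-value 0.00438, JTK q = 0.0282). The ratio of Tfeb to Tfe3 had a 24 h rhythm (amplitude 0.52 ± 0.07 log2, adjusted *P*-value 0.00014, permutation test over 14 pairs), with mean ratios of value + 1 of 0.296 at ZT1 and 0.559 at ZT9.

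Over the 14 pairs of related genes, 10 had a rhythm in their ratio at an adjusted *P*-value below 0.05. Besides those of Atg4a to Atg4b and Bnip3l to Pink1, the ratios of Atg2a to Atg2b (amplitude 0.20 ± 0.07 log2, adjusted *P*-value 0.0527) and Wipi1 to Wipi2 (0.16 ± 0.08 log2, adjusted *P*-value 0.197) were not called in the permutation tests. For Atg2a to Atg2b the adjusted *P*-value ran from 0.0266 to 0.110 over the alternatives and left-out livers. A ratio within a liver does not depend on the scaling between livers, except through the pseudocount.

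Levels were compared between genes per kb of transcript. Lamp1 was highest, with a mean normalized value of 229 per kb, and its lowest liver (216) was above the highest of Lamp2 (191, mean 167). Lamp2, Sqstm1 (mean 142 per kb) and Gabarapl1 (mean 120.1 per kb) overlapped over the 18 livers, and so did Gabarapl1 and Gabarap (mean 102 per kb). All livers of Pink1 (mean 57.7 per kb) were below those of Gabarap and above those of Nbr1 (mean 39.9 per kb). At the low end were Tfeb (3.33 per kb), Atg16l2 (2.63 per kb) and Atg10 (2.10 per kb), whose ranges overlapped.

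The 17 genes that were not called had amplitudes from 0.04 to 0.21, ratios of highest to lowest mean from 1.10 to 1.52 and adjusted *P*-values from 0.0548 to 0.709. They were Atg13, Becn1, Pik3r4, Ambra1, Atg2b, Wipi1, Atg5, Atg10, Atg12, Atg16l1, Atg4a, Atg4b, Atg4c, Gabarap, Gabarapl2, Pink1 and Lamp1. Failing the threshold does not show that these genes were flat, and the largest amplitude among them, 0.21 for Atg10, was on 23 to 98 reads per liver. Becn1 shares 43.9% of its exons with Cntd1 on the other strand, which had a mean value of 0.136.

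Further lists were drawn up from textbook roles, with earlier results of these data known. Of 63 further autophagy genes (receptors, fusion factors and regulators), 53 were in the table and 30 had a 24 h rhythm by limma. Of the 30, 22 peaked in the light phase and 8 in the dark phase, and 17 were also called by JTK. Limma called 35.3% of all genes tested, 18.2% with a light phase and 17.1% with a dark phase peak, and both tests called 13.9%. The median amplitude of the 53 was 0.17. Bnip3, a relative of Bnip3l in mitophagy, was highest at ZT13, with 276 ± 19.7 (SD, n = 3), and lowest at ZT1, with 126 ± 5.52 (SD, n = 3) (amplitude 0.49 ± 0.05, peak ZT12.2, adjusted *P*-value 2.56e-06). Trp53inp2, a nuclear protein that brings LC3 to the cytoplasm, peaked at ZT15.6 (amplitude 0.52 ± 0.06, adjusted *P*-value 1.42e-05). The other 3 of the 5 with the smallest *P*-values peaked in the light phase, namely Wdr45, a PI3P binding relative of the WIPI proteins, at ZT6.4, the receptor Calcoco1 at ZT4.1 and Atl3, which shapes the endoplasmic reticulum, at ZT4.1. Their amplitudes were 0.28 ± 0.04, 0.56 ± 0.08 and 0.26 ± 0.04, with adjusted *P*-values of 4.50e-05, 0.000204 and 0.000268.

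Of 64 lysosomal genes (hydrolases, the proton pump and membrane proteins), 63 were in the table and 25 had a 24 h rhythm by limma, 17 with a peak in the light phase and 8 in the dark phase, and 12 were also called by JTK. The share called was 39.7%, near the 35.3% of all genes, and the median amplitude was 0.14. Both tests together called 13.9% of all genes. Atp6v1d and Atp6v1c1, both subunits of the proton pump, peaked at ZT14.5 and ZT8.6 (amplitudes 0.30 ± 0.04 and 0.21 ± 0.03, adjusted *P*-values 1.96e-05 and 0.000514). The hydrolase Arsa peaked at ZT4.7 (amplitude 0.52 ± 0.07, adjusted *P*-value 6.47e-05), and the hydrolase Gusb at ZT15.8 (amplitude 0.24 ± 0.04, adjusted *P*-value 0.000958).

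Markers of some other liver cells also varied with time. For comparison, limma called 35.3% of all genes tested, 18.2% with a light phase and 17.1% with a dark phase peak, and both tests called 13.9%. The marker lists were short and were not tested against these shares. Of 11 Kupffer cell markers 10 were in the table, all 10 with a fitted peak between ZT4 and ZT12, and 5 were called by limma and 0 by JTK (8 and 3 at an unadjusted *P*-value below 0.05). Their summed level ran from 180.4 to 341 at ZT1, 289 to 390.4 at ZT5, 303 to 364 at ZT9, 277 to 367 at ZT13, 152 to 343 at ZT17 and 152 to 238 at ZT21. All 10 sinusoidal endothelial markers had a fitted peak between ZT4 and ZT12, and 5 were called by limma and 0 by JTK (7 and 1 at an unadjusted *P*-value below 0.05). Their summed level ran from 186 to 274 at ZT1, 272 to 347 at ZT5, 239 to 304 at ZT9, 204 to 296 at ZT13, 144 to 264 at ZT17 and 151 to 231 at ZT21. Of 10 stellate cell markers, 7 had a peak between ZT4 and ZT12 and 1 was called, with summed levels from 279 to 494. Of the hepatocyte markers 5 of 10 were called, 4 of them with a peak in the dark phase, and of 6 cholangiocyte markers (summed level 31.8 to 58.4) 3 were called, all with a peak in the dark phase. Of 10 blood cell markers 9 were in the table, with a summed level of 26.3 to 581 and Cd3e missing, and 0 were called by limma or JTK (2 and 0 at an unadjusted *P*-value below 0.05). No marker measured was at 0 in all livers, and the lowest mean was that of S100a8, with 0.315. Between ZT5 and ZT17 the Kupffer sums overlapped (289 to 390.4 and 152 to 343). The endothelial sums of these times came close but did not overlap (272 to 347 and 144 to 264). The part of these cells in the light phase peaks of the 19 autophagy genes was not tested.

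**Figure D5:**
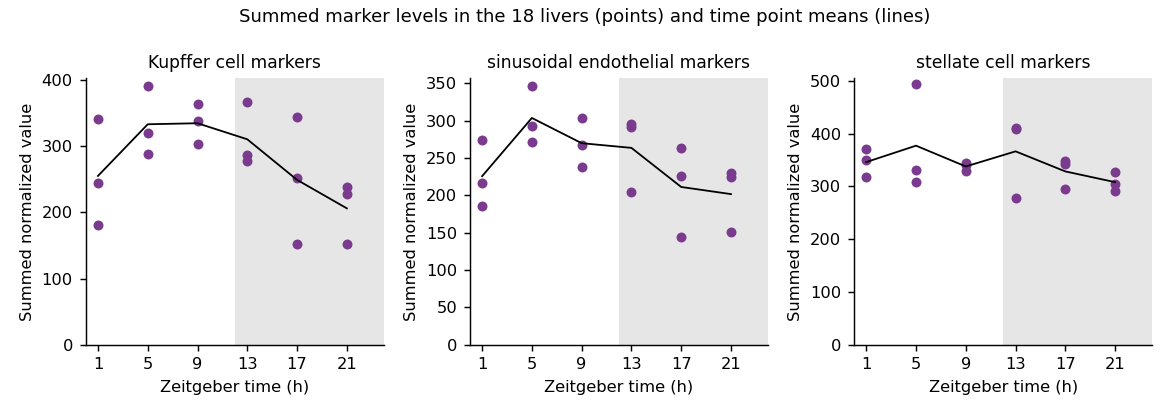
Summed normalized value of the Kupffer cell, sinusoidal endothelial and stellate cell markers (vertical axes, from 0) in the 18 livers (points) by zeitgeber time (horizontal axes, dark phase shaded), with lines through the means of 3 livers. Kupffer sums average 333 at ZT5 and 206 at ZT21, with livers of most time points overlapping.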

How the data were processed

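Poly(A) RNA of 18 livers was sequenced, 3 mice at each of 6 time points. Per the labels and the methods, reads were demultiplexed with CASAVA 1.8.2, trimmed with cutadapt and quantified on the GRCm38 transcriptome with RSEM 1.2.20, and normalized with limma. Each deposited value is a linear signal: estimated count plus 0.5, scaled by the authors to 1000000 reads of a library size of their choice. Taking each liver's lowest value as 0 reads, between 39.1% and 47.9% of values per liver were whole reads (within 0.005 reads), so tests for whole counts were not used. Of 14451 genes, 2 were at the lowest value in every liver and 14449 were tested. Livers had from 10268168 to 23242842 estimated reads.

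With limma 3.58.1 in R 4.3.3, log2(value + 1) was fitted with a cosine and sine of 24 h, with these and a 12 h pair, and with 6 means, each tested by a moderated F test with Benjamini–Hochberg adjustment over all genes. A fold change on this scale understates the change of low genes. JTK (cosine orders of 20, 24 and 28 h, null of the 6 time point groups, Bonferroni over orders) was written in Python 3.11.15 with numpy 2.4.6. That null keeps time points of equal cosine apart, so it is not exact for orders with such ties. With equal cosines taken as 1 group, JTK called 21 of the 41 genes and 22.4% of all genes. The study's CircaN and MC were not run here. A rhythm in the ratio of 14 pairs of genes was tested by two-sided permutation of livers (100000 resamples). Scripts were tested on simulated data. Coordinates, exon overlaps and transcript lengths are from GENCODE M21, the latter of the longest principal transcript.

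The 41 genes, the lists and the tests were chosen with earlier results of these data known. Values of every liver are given for genes called by both limma and JTK and for 6 further ones with the smallest limma *P*-values, and from the further autophagy and the lysosomal list the 5 with the smallest are named, apart from 1 lysosomal gene that is not reported here. Alternatives covered the pseudocount, a minimum mean value of 1, the scaling between livers, the prior variance, the null and orders of JTK and leaving out each liver.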

Additional observations from a re-analysis of the deposited data

How the results depend on the processing

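Under the 6 alternatives of pseudocount, filter, scaling and prior variance, between 25 and 28 of the 41 genes had a 24 h rhythm by limma. The count was 24 under the main settings and between 21 and 25 when 1 liver was left out. Of all genes, 34.5% to 41.4% were called under the alternatives and 31.6% to 35.2% without 1 liver, against 35.3%. Of the 24 genes, 21 were called in all 24 of these settings and none changed direction, and Ulk2, Atg9a and Atg7 lost the call in 16 fits, all of them without 1 liver. Those with a peak in the light phase numbered 18 to 22 under these 6 alternatives and 16 to 20 without 1 liver, against 19, and those with a peak in the dark phase 5 to 8 and 5 to 7, against 5. JTK calls depended more on single livers. Between 8 and 15 genes were called with 1 liver left out, against 15 with all livers, and they were 8 without the second liver of ZT5 and 9 without the first or the second liver of ZT17. Other nulls, orders, scalings and the filter gave between 13 and 21. Differences between any time points were found in 20 to 23 genes under the alternatives and in 16 to 21 without 1 liver. The 12 h term passed in 0 genes by limma in each of these settings, with 4 at an unadjusted *P*-value below 0.05 under the main settings. Ratios of pairs were called in 10 to 12 of 14, and the ratios of Atg2a to Atg2b, Bnip3l to Pink1 and Wipi1 to Wipi2 passed in at least 1 setting. The further autophagy genes called ranged from 28 to 34 and the lysosomal genes from 22 to 32. No paired analysis was possible because the labels give no replicate numbers that time points share, and each liver is of a different mouse. At 63 to 150.0 reads per liver, counting error limits genes such as Fundc1 and Tfeb more than genes with many reads.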
